A study of Saccharomyces cerevisiae with 30 samples.

Results

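The auxin-inducible degron removes a tagged protein when auxin is added, and it needs cells that express OsTIR1, a plant receptor that joins the cell's own ubiquitin ligase. A control for auxin itself is a strain that expresses OsTIR1 and carries no tag. This strain, called WT here, was built in the BY4741 background of budding yeast, with OsTIR1 under the GPD1 promoter at LEU2 and a FLAG tag on RPB3. All its libraries share these changes. Cells grown in rich glucose medium were mock-treated or treated with 100 µM auxin (indole-3-acetic acid) for 20 min, and 2 libraries were made from each group, so the control comprises 4 of the 30 samples of the series. Replicates A and B are separate isolates, grown and treated on separate days. The question was what auxin does when there is nothing to degrade. For comparison, the same treatment was given to cells in which an rRNA processing nuclease carries the AID tag (LAS1-AID, RAT1-AID, RRP17-AID and RRP44-AID). Other untagged cells received the ribosome assembly inhibitor diazaborine (DZA, 15 µg/ml) or DMSO for 15 or 45 min. The sample titles call those cells WT and the control WTAID, so the titles do not show them to be the same strain. The auxin stock was made in ethanol, and whether mock cells received ethanol is not given in the sources used here, so auxin and its solvent cannot be told apart.

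Indole-3-acetic acid is a plant hormone that yeast itself can make from tryptophan. Yeast breaks down the aromatic amino acids by the Ehrlich pathway: the aminotransferases Aro8 and Aro9 remove the amino group, the decarboxylase Aro10 and pyruvate decarboxylases give an aldehyde, and alcohol dehydrogenases such as Adh5 reduce it to an alcohol. The transcription factor Aro80 binds upstream of ARO9 and ARO10 and switches them on when aromatic amino acids are present. Hsf1, the heat-shock factor, drives chaperone genes such as HSP82, which encodes Hsp90, and its targets are what the study measured in the tagged strains.

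The sequences that these factors recognize are shown for some of the genes named below, all of them lower with auxin. They were read from the RefSeq R64 genome on the strand of the gene, 5′ to 3′. Capitals mark motif matches: for ARO9 and ARO10 the outer triplets of CCG and CCG separated by 7 bases of any kind, on either strand, and for the chaperone genes GAA and TTC, in either order, separated by 2 bases of any kind, which reads the same on the other strand. Overlapping matches run together.
ARO9: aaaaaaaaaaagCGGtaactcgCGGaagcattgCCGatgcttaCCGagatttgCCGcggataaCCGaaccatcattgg
ARO10: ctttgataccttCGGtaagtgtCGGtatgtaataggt
HSP82: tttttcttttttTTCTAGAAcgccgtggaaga
HSP42: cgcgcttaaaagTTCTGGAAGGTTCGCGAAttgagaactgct
HSP104: ccaGAATTTTCTAGAAgggttattaatt
The ARO9 window lies at chrVIII:375511-375588 (plus strand), the ARO10 window at chrIV:1233949-1233985 (plus strand), the HSP82 window at chrXVI:98841-98872 (minus strand), the HSP42 window at chrIV:806366-806407 (plus strand) and the HSP104 window at chrXII:88323-88350 (plus strand). Each lies upstream of the start codon, outside the coding sequence: the coding exons are at chrVIII:375709-377250 for ARO9 (YHR137W), chrIV:1234218-1236125 for ARO10 (YDR380W) and chrXVI:96496-98625 for HSP82 (YPL240C). In the 300 bases before the start codon ARO9 held 5 matches to the Aro80 spacing, of which the one that starts 231 bases upstream lies outside the printed window, and ARO10 held 1, and 2.72% of all 6001 promoters of that length held any. The Hsf1 motif was found in 22.4% of all promoters and in 29 of the 41 promoters of the Hsf1 target list. HSP82 held 2 such matches, HSP42 held 3 and HSP104 held 2. Matches also lay upstream of genes that did not fall alike. SSA1, with a log2 change of -0.06, held 3 Hsf1 matches, SSA4 held 1 and RPN4 held 2. DPI8, which was higher in both pairs, and UBI4 held 1 match each to the Aro80 spacing. The motif TGACTC of Gcn4, the activator of amino acid synthesis, occurred 3 times upstream of HIS4 and once each upstream of ADH5 and GLN1, and 7.77% of all promoters held it. These are matches of letters and not measured binding.

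Between 36377539 and 98070287 reads were counted on features in each of the 4 libraries, and 15014154 to 99585064 over the 23 libraries of the series whose reads were used. The values compared are counts that the authors divided by size factors, called normalized counts, in a table of 7126 features. Among the loci altered in BY4741, URA3 and MET17 had 0 reads in all 4 libraries, and a count of 0 allows up to 1.66 to 4.63 normalized counts per library (3 reads, counting error only), while HIS3 gave 1932 to 2342 and LEU2 49.6 to 123. The markers of MATa cells were high, with STE2, the α-factor receptor, at 35680 to 44890, and those of MATalpha cells low, with STE3 at 86.8 to 117. Of the genes tagged in the other strains, none was called: RAT1 was at -0.03 on the log2 scale (95% interval -0.41 to 0.35), LAS1 at 0.04 (-0.30 to 0.38), RRP17 at -0.09 (-0.42 to 0.25) and DIS3, which encodes Rrp44, at -0.02 (-0.48 to 0.43). Auxin A stands apart from the other 3 libraries: small nucleolar RNAs (snoRNAs), which guide rRNA modification, took 6.72% of its reads against 2.89 to 3.65% elsewhere, and protein-coding features took 83.8% against 88.5 to 90.3%.

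The baseline was ranked in the mock libraries. In normalized counts per kb of annotated length, the signal recognition particle RNA SCR1 ranked first in the mock libraries, at 4961303 in mock A and 5035339 in mock B. The spliceosomal RNA LSR1 came second, at 844941 and 805346, and its level per kb in auxin A was 1436016 against 704609 in auxin B. The highest mRNA was CCW12, a cell wall mannoprotein, at 538507 and 747645 per kb. TDH3, the main glyceraldehyde-3-phosphate dehydrogenase, was at 523751 and 516090 per kb, so that the lower CCW12 library lay closer to TDH3 than to the other CCW12 library and their order is not fixed beyond the spread. Next came FBA1 (aldolase), RPS31 (a ribosomal protein made as a fusion with ubiquitin), PDC1 (pyruvate decarboxylase) and CDC19 (pyruvate kinase). RPS31 was at 412094 and 483824 per kb in mock A and B, a range that overlaps those of FBA1, PDC1 and CDC19, so the order of these genes is not fixed by 2 libraries. The 15 highest were completed by CWP2, YDR524C-B, RPS26A, ENO2, RPS1B, PGK1 and GPM1, of which ENO2, PGK1 and GPM1 are glycolytic. Of the 15, 13 were also among the 15 highest after auxin, and together they took 14.1 to 17.0% of the reads. Without division by length, 9 of the 15 stayed in the ranking.

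Few transcripts were called different between auxin and mock libraries. With treatment as the only variable, limma on log2(normalized count + 1) called 0 of the 6295 features with a mean of at least 10 (0% called, Benjamini-Hochberg adjusted p under 0.05, two-sided), and 48 had an unadjusted p under 0.05. By edgeR the counts were 0 and 50. The 48 features of limma were 0.76% of those tested, fewer than a threshold of 0.05 passes when nothing differs. These fits ignored the pairing by replicate letter and left letter differences in their error. Their calls are therefore conservative. When the replicate letter entered the fit as a block, 8 features passed, 0.127% of those tested: ARO9, ARO10, HSP82 and snR49 were lower and ADH5, CIT2, ENO1 and RRT15 were higher. In this limma fit 270 features had an unadjusted p under 0.05. The block in edgeR called the same 8 features. With the block each feature keeps little spread of its own from which to estimate error. The p-values then lean on a variance pooled over features, so a feature can be called although its pairs differ. DESeq2 without the block called 2, ARO9 (lower) and TDH2 (higher). Leaving out auxin B gave 24 calls, and leaving out mock B gave 1, while leaving out auxin A or mock A gave 0.

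The interval around each change shows how far this control can limit an effect of auxin. The 95% interval lay within 2-fold in either direction for 5366 features, 85.2% of those tested, and over all features the median distance from a change to the end of its interval was 0.42 on the log2 scale. It depended on the level: 16.5% of the 708 features with a mean between 10 and 100 had an interval within 2-fold, 82.5% of the 967 between 100 and 1000, 97.2% of the 3556 between 1000 and 10000, and 93.5% of the 1064 above. For most features with a mean under 100 the interval did not exclude a 2-fold difference. These intervals are not adjusted for the number of features. An interval within 2-fold therefore does not mean that a 2-fold difference would have been called. ARO9, with a log2 change of -1.004 and an interval that ran past 2-fold, was not called by limma without the block. DESeq2 without the block did call ARO9.

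To find what moved alike, the change from mock to auxin was taken within each pair of libraries with the same replicate letter. Among the 5587 features with a mean of at least 100, 12 (0.215%) differed by 1.5-fold or more with the same sign in both pairs, 6 higher and 6 lower, and 6 did so with opposite signs. None of these 5587 features reached 2-fold in both pairs. In pair A alone 353 features passed 1.5-fold and in pair B 43 did. Across the features the changes of the pairs had a Pearson correlation of -0.087, which describes features that share libraries and size factors and carries no test. In both pairs 1184 features were higher and 1329 lower, and 3074 had opposite signs.

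**Figure D1:**
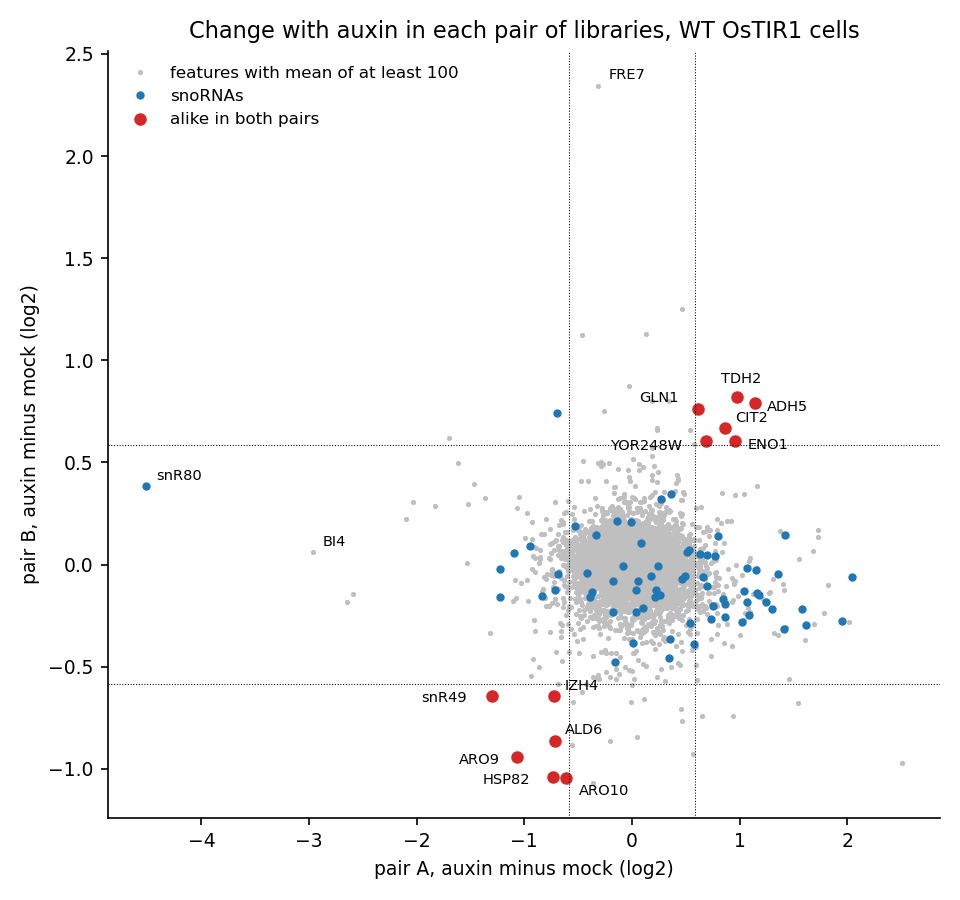
Log2 change from mock to auxin in pair A (x axis) and pair B (y axis) for the 5587 features whose mean is 100 or more in WT OsTIR1 cells; blue points are snoRNAs, red points the 12 features alike in both pairs, and dotted lines mark 1.5-fold. Pair A spreads wider than pair B, with 353 against 43 features past 1.5-fold, and most snoRNAs lie right of 0 in pair A.

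The aromatic amino acid pathway held the lowest of these features. ARO9, the inducible aromatic aminotransferase, had normalized counts of 4609 in mock A, 4671 in mock B, 2204 in auxin A and 2427 in auxin B. Both auxin values were under both mock values, as they were for 10.7% of the 6295 features, and both were above for 11.1%. The difference was a log2 change of -1.004 ± 0.13 (SE, n = 2 per group, 95% interval -1.33 to -0.68), with a limma adjusted p of 0.99997 without and 0.00067 with the block. For ARO9 and the other features alike in both pairs, the way they were chosen favours groups that lie apart. Such a gap between groups therefore adds no support for any of them. ARO10, the decarboxylase of the pathway, had 3493 and 3390 in mock A and B and 2290 and 1643 in auxin A and B. Its log2 change was -0.83 ± 0.19, called with the block (limma adjusted p = 0.0066), and it was -1.07 without auxin A and -0.59 without auxin B. In the same list of 9 genes of aromatic amino acid catabolism, ADH5, an alcohol dehydrogenase, moved the other way: 1265 and 993 in mock A and B, 2788 and 1720 in auxin A and B. Its groups did not overlap either, and the log2 change was 0.97 ± 0.26 (limma adjusted p with the block = 0.0029). It was 0.62 without auxin A and 1.31 without auxin B. The other 6 members did not pass: the constitutive aminotransferase ARO8 was at -0.10, the activator ARO80 at -0.10 (95% interval -0.42 to 0.22), the pyruvate decarboxylases PDC1, PDC5 and PDC6 at 0.12, -0.00 and -0.09, and the alcohol dehydrogenase SFA1 at 0.03. The list median was -0.09 (0.01 without auxin A), beside -0.01 over all features tested. None of the 12 aromatic synthesis genes was called, and they ranged from -0.16 (TRP4) to 0.22 (ARO3).

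HSP82, one of the genes for Hsp90, had 22399 and 18410 normalized counts in mock A and B and 13511 and 8941 in auxin A and B. All auxin values were below all mock values, and the log2 change was -0.89 ± 0.23 (limma adjusted p with the block = 0.0029). It was -1.18 without auxin A and -0.59 without auxin B. Its near-identical copy HSC82, the constitutive Hsp90 gene, was at 258119, 258835, 286429 and 224506 in mock A, mock B, auxin A and auxin B, a log2 change of -0.03 (95% interval -0.67 to 0.61). Reads shared by the copies could be split between them by the counting, so the value of HSP82 is less certain than its error.

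Among the other features lower in both pairs, ALD6, the cytosolic aldehyde dehydrogenase that makes acetate, had 88148 and 75164 in mock A and B and 53658 and 41354 in auxin A and B. Its log2 change of -0.79 ± 0.21 was not called with the block (limma adjusted p = 0.13). IZH4, a membrane protein of zinc homeostasis, had 1519 and 2253 in mock A and B and 919 and 1442 in auxin A and B, so its groups did not overlap, while auxin B lay close to mock A. OLE1, the fatty acid desaturase, had 28258 and 36926 in mock A and B against 19340 and 23190 in auxin A and B. The snoRNA snR49 had 2443, 1020, 990 and 653 in mock A, mock B, auxin A and auxin B. The difference between its mock libraries was larger than the step from mock B to auxin A, and it was called with the block (limma adjusted p = 0.0066). Its log2 change of -0.97 ± 0.43 was -0.34 without mock A and -1.60 without mock B. YCR025C, tG(GCC)F2 and RIM4 completed the 10 lowest at levels of 37.0 to 237.

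The 6 features that were higher in both pairs were TDH2, ADH5, CIT2, GLN1, ENO1 and YOR248W. TDH2, a glyceraldehyde-3-phosphate dehydrogenase, had 74419 and 65574 in mock A and B and 146703 and 115591 in auxin A and B, a log2 change of 0.90 ± 0.21. DESeq2 called it (adjusted p = 0.016), and limma with the block did not (adjusted p = 0.13). Its copies TDH3 and TDH1 were at 0.23 (95% interval -0.55 to 1.01) and 0.34 (-0.59 to 1.27). ENO1, an enolase, had 11289 and 8112 in mock A and B and 21946 and 12358 in auxin A and B. Its log2 change was 0.78 ± 0.30 (limma adjusted p with the block = 0.0080), and it was 0.37 without auxin A and 1.20 without auxin B. The value in auxin B was only slightly above that in mock A. Its copy ENO2 was at 0.26 (-0.45 to 0.98). TDH2 and ENO1 share long stretches with their copies, with the same reservation as for HSP82.

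CIT2, the peroxisomal citrate synthase that responds to the state of the mitochondria, had 5620 and 5076 in mock A and B and 10202 and 8055 in auxin A and B. CIT2 changed by 0.76 ± 0.16 on the log2 scale (limma adjusted p with the block = 0.0066). GLN1, the glutamine synthetase, had 41246 and 33619 in mock A and B and 63068 and 57052 in auxin A and B, GPP1, a glycerol phosphatase, 40744 and 37898 against 60618 and 57016, and HIS4, an enzyme of histidine synthesis, 20385 and 19379 against 27466 and 25875. None of these 3 was called. They were chosen as higher in both pairs, so that their groups lie apart says nothing further. Of the remaining features, YOR248W passed 1.5-fold in both pairs while its replicates differed far more, at 16.6 and 27.4 in libraries A and 182 and 278 in libraries B. RRT15 rested on few reads, 3 in mock A, 50 in mock B, 105 in auxin A and 84 in auxin B, and was called with the block (limma adjusted p = 0.00093). Its log2 changes were far apart, at 5.63 in pair A and 1.45 in pair B. YBR012C had 402 and 394 in mock A and B and 586 and 622 in auxin A and B, and DPI8 had 291 and 136 against 403 and 324.

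**Figure D2:**
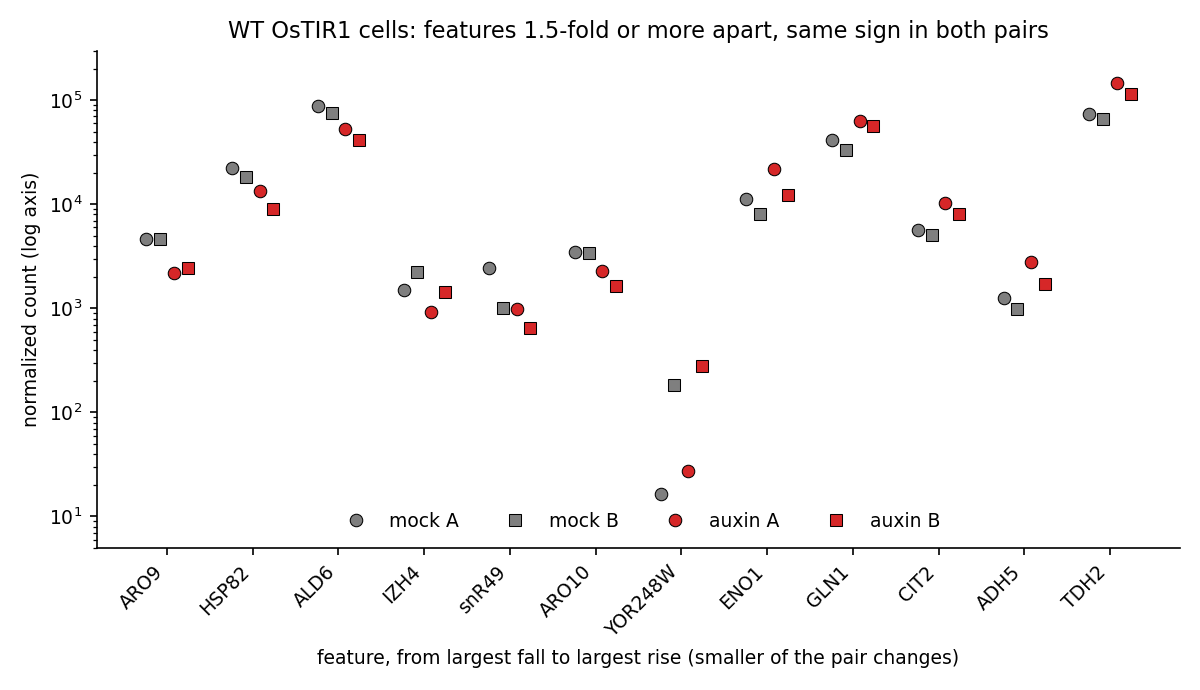
Normalized counts (log axis) of the 12 features that differed 1.5-fold or more with the same sign in both pairs, in each of the 4 libraries of WT OsTIR1 cells; grey is mock, red is auxin, circles are replicate A and squares replicate B. For ARO9 both auxin libraries (2204 and 2427) lie below both mock libraries (4609 and 4671), whereas for YOR248W the replicates are further apart than the groups.

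The AID strains and the DZA experiment are libraries that took no part in choosing these features, and each has its own table and controls. In the AID strains the same auxin treatment comes together with loss of the tagged protein, and these cannot be told apart there. ALD6 was below 0 in all 4 AID strains, at -1.36 ± 0.20 in RAT1-AID, -0.51 ± 0.13 in LAS1-AID and -0.91 ± 0.10 in RRP44-AID cells on the log2 scale (limma adjusted p = 0.0057, 0.016 and 0.0014), and at -0.94 in RRP17-AID cells, which have 1 mock library and no test. Of all features tested, 6.02% were called lower in RAT1-AID, 17.2% in LAS1-AID and 10.2% in RRP44-AID cells. OLE1 was at -0.72, -0.63 and -0.71 in these 3 strains, all called by limma, and at -1.09 in RRP17-AID cells. TDH2 was above 0 in all 4, at 0.81 in RAT1-AID, 0.40 in LAS1-AID, 0.65 in RRP44-AID and 0.93 in RRP17-AID cells, and only the RRP44-AID value was called without the block (limma adjusted p = 0.0031), while with it all 3 tested were. The background of calls in the higher direction was 10.7% in RAT1-AID, 16.5% in LAS1-AID and 15.1% in RRP44-AID cells. CIT2 was called higher in RAT1-AID (0.70), LAS1-AID (1.09) and RRP44-AID cells (0.49), and was at 0.05 in RRP17-AID cells. ADH5 was at 0.79, 0.18, 0.28 and 0.60 in RAT1-AID, LAS1-AID, RRP44-AID and RRP17-AID cells, with none called without the block and the RAT1-AID value called with it (limma adjusted p = 0.020).

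ARO9 and ARO10 were called lower in RAT1-AID cells, by -1.34 ± 0.20 and -1.43 ± 0.20 (limma adjusted p = 0.0065 and 0.0051). In LAS1-AID cells they were at 0.09 and 0.19, in RRP44-AID cells at 0.15 and 0.02, and in RRP17-AID cells at -0.32 and -0.34. The edgeR interaction on recovered reads, which tests the change in an AID strain minus that in WT, was called for LAS1-AID, with 1.10 for ARO9 (adjusted p = 0.0038) and 0.998 for ARO10 (adjusted p = 0.036). Both differences contain the WT fall for which these genes were chosen. The calls therefore add no separate support for that fall. For RAT1-AID the differences were -0.30 and -0.62 and were not called (adjusted p = 0.57 and 0.28). With DZA, without any auxin, ARO9 was higher by 1.74 at 15 min and 1.77 at 45 min and ARO10 by 2.02 and 2.36, all called by limma. TDH2 under DZA was at -0.63 at 15 min, not called, and -0.36 at 45 min, called. ALD6 was called lower at 15 min (-1.14) and higher at 45 min (0.39).

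Of the 10 features lower in both WT pairs, 5 were lower in RAT1-AID cells, 2 in LAS1-AID, 2 in RRP44-AID and 5 in RRP17-AID cells, where 50.5 to 57.5% of the 5587 features were lower. Of the 10 higher, 9 were higher in RAT1-AID, 5 in LAS1-AID, 7 in RRP44-AID and 6 in RRP17-AID cells, where 42.6 to 49.5% of features were higher. With DZA for 45 min, all 10 features lower in WT were higher, 9 of them called by limma. Of the 10 higher in WT, 9 were lower with DZA for 45 min, 7 of them called. Over the 5587 features 42.6% were higher and 57.4% lower there, and limma called 1537 of 6476 tested features higher and 1532 lower. GLN1 was below 0 in all 4 strains, from -1.23 to -0.11, and differed from WT by -1.90 in LAS1-AID cells (edgeR interaction adjusted p = 0.0025). That difference contains the WT rise for which GLN1 was chosen.

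**Figure D3:**
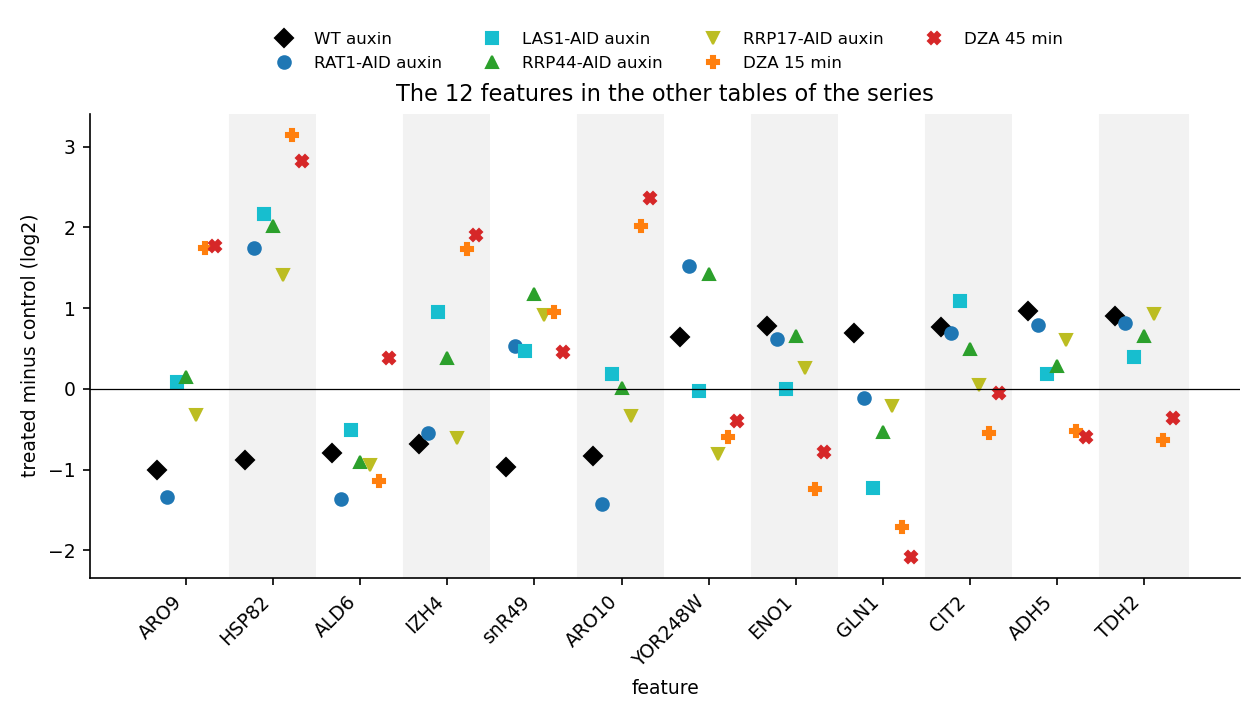
Log2 change (treated minus control) of the 12 features in WT auxin libraries (black diamonds), the 4 AID strains with auxin and WT cells with DZA for 15 or 45 min. ALD6 lies below 0 and TDH2 above 0 in all 5 auxin tables, HSP82 is below 0 in WT (-0.89) and above 0 everywhere else, and ARO9 and ARO10 are below 0 in WT, RAT1-AID and RRP17-AID cells and far above 0 with DZA.

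No Hsf1 target was called higher in the control. Of the 41 genes on the list, 38 were below 0 and 3 above, 0 were called by limma without the block and 1, HSP82, with it, and 26 were lower in both pairs while 0 were higher in both. Of all 6295 features tested, 3303 were below 0, 1508 were lower in both pairs and 1362 were higher in both. The median log2 change was -0.14, with -0.15 in pair A and -0.16 in pair B, and over all features tested it was -0.01. It was -0.20 without auxin A, and under the other settings it stayed between -0.20 and -0.10. The interval lay within 2-fold for 33 of the 41. Among the genes whose transcripts the study follows, SSA1 and SSA4, which encode Hsp70 chaperones, were at -0.06 ± 0.16 and -0.03 ± 0.15. BTN2 and HSP42, which sort aggregated proteins, were at -0.34 ± 0.19 and -0.56 ± 0.22, HSP104, the disaggregase, at -0.55 ± 0.23, RPN4, the activator of proteasome genes, at -0.19 ± 0.12, and UBI4 (polyubiquitin) at -0.33 ± 0.29. HSP12 and TPS2, targets of the general stress factors Msn2 and Msn4, were at -0.18 ± 0.27 and 0.00 ± 0.13. None of these was called with or without the block. Leaving out single libraries moved all of them but RPN4 by over 1.5 times or past 0. HSP104 was at -0.28 without auxin B, HSP42 at -0.32 without mock A, and BTN2 at -0.17 without mock B and -0.18 without auxin B. UBI4 ran from -0.69 without auxin A to 0.02 without auxin B, and HSP12 from -0.47 without mock B to 0.11 without mock A. SSA1, SSA4 and TPS2, all near 0, changed sign, while RPN4 stayed between -0.21 and -0.17.

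HSP42 had 1979 and 1418 normalized counts in mock A and B and 1264 and 1020 in auxin A and B, and HSP104 had 17913 and 13770 against 12948 and 8938. For both the auxin values lay below the mock values, as they did for 10.7% of all 6295 features tested. BTN2 had 2160 and 2743 in mock A and B and 2146 and 1721 in auxin A and B, so that mock A and auxin A were nearly equal. SSA4 had 1665 and 1609 in mock A and B and 1707 and 1502 in auxin A and B, with the groups interleaved. The highest of the 41 was SSA2, at 0.08, and after HSP82 the lowest was TMA10, at -0.71, with 556, 309, 433 and 147 in mock A, mock B, auxin A and auxin B.

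The change in the AID strains was then set against this control by the edgeR interaction. For RAT1-AID 427 of 6493 features differed from WT, 334 higher (5.14%) and 93 lower (1.43%). For LAS1-AID 454 of 6247 did, 311 higher (4.98%) and 143 lower (2.29%). With the block the counts were 641 and 980. Of the 41 Hsf1 targets, 12 were called higher than in WT for RAT1-AID and 25 for LAS1-AID, and none lower for either. With the block these were 20 and 34. Relative to WT, HSP82 was higher by 2.62 for RAT1-AID and 3.03 for LAS1-AID, BTN2 by 3.95 and 2.88, HSP42 by 2.73 and 3.44, and HSP104 by 1.77 and 2.72, all with adjusted p under the threshold. Within the AID strains, the limma change of HSP82 was 1.75 for RAT1-AID and 2.16 for LAS1-AID, beside -0.89 in WT. Leaving out 1 WT library at a time, the count for RAT1-AID ranged from 195 without mock A to 560 without auxin B, and that for LAS1-AID from 169 without mock A to 1427 without auxin B.

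Other groups of genes gave no calls in WT cells without the block. Of the 206 Msn2/4 targets, counted without 6 that are also on the Hsf1 list, 75 were above 0 and 131 below. They ranged from -0.78 (TKL2) to 0.63 (GAL7). Their median of -0.05 was 0.03 without auxin B, 0.04 without mock A and -0.15 without auxin A. The median of 27 proteasome subunits was -0.08, with 16 lower in both pairs and 0 higher in both (1508 and 1362 of all 6295 features), from -0.31 (PRE6) to 0.14 (PRE9). The 23 targets of the unfolded protein response had a median of -0.06, which was 0.01 without auxin B, from -0.37 (INO1) to 0.35 (DIA3). The 8 SCF ubiquitin ligase genes, to whose complex OsTIR1 binds, ranged from -0.13 (CDC53) to 0.07 (MET30), and all 8 intervals lay within 2-fold. The 24 drug and weak acid exporters and their regulators ranged from -0.48 (TPO2) to 0.49 (AZR1), with PDR5, a major drug pump, at -0.09 and PDR12, the weak acid pump, at 0.07 (95% interval -0.42 to 0.56). The 18 amino acid permeases ranged from -0.46 (PUT4) to 0.36 (AGP1), and TAT2, the tryptophan permease, was at -0.00.

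Among nutrient genes, the 14 of iron uptake ranged from -0.38 (FTR1) to 0.50 (FRE1), the 15 of phosphate starvation from -0.44 (PHM6) to 0.38 (SPL2), the 5 flocculins from -0.36 (FLO11) to 0.15 (FLO9), and the 12 RNA polymerase II subunits from -0.29 (RPO21) to 0.30 (RPB10). RPB3, which carries the FLAG tag, was at 0.06. The 8 hexose transporters ran from -0.68 (HXT7) to 0.17 (HXT6), a pair of nearly identical genes whose reads could be split by the counting. The 168 ribosome biogenesis genes were evenly placed, 84 above and 84 below 0, with a median of 0.00 that moved between -0.07 without mock A and 0.08 without mock B, and a range from -0.29 (RTC3) to 0.37 (NIP7).

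Ribosomal protein genes were the one large list placed above 0, and that rested on auxin A. Of 135 genes, 118 were above 0 and 17 below, with a median of 0.19, but the median was 0.38 in pair A and 0.01 in pair B, and -0.01 without auxin A. RPL43B, the highest at 0.57, had 20983 and 23428 in mock A and B, 50949 in auxin A and 21310 in auxin B. The lowest was RPL41A, at -0.43. In reads, auxin A lies between mock B and auxin B. Length moved with pair A: the median change in pair A was 0.15 for the 645 protein-coding features under 500 bases of coding length, 0.10 for 1355 features from 500 to 1000, -0.03 for 2091 from 1000 to 2000 and -0.13 for 1275 of 2000 or more. In pair B the medians over these same groups lay between -0.03 and 0.02. What part length had in the ribosomal protein values was not tested.

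**Figure D4:**
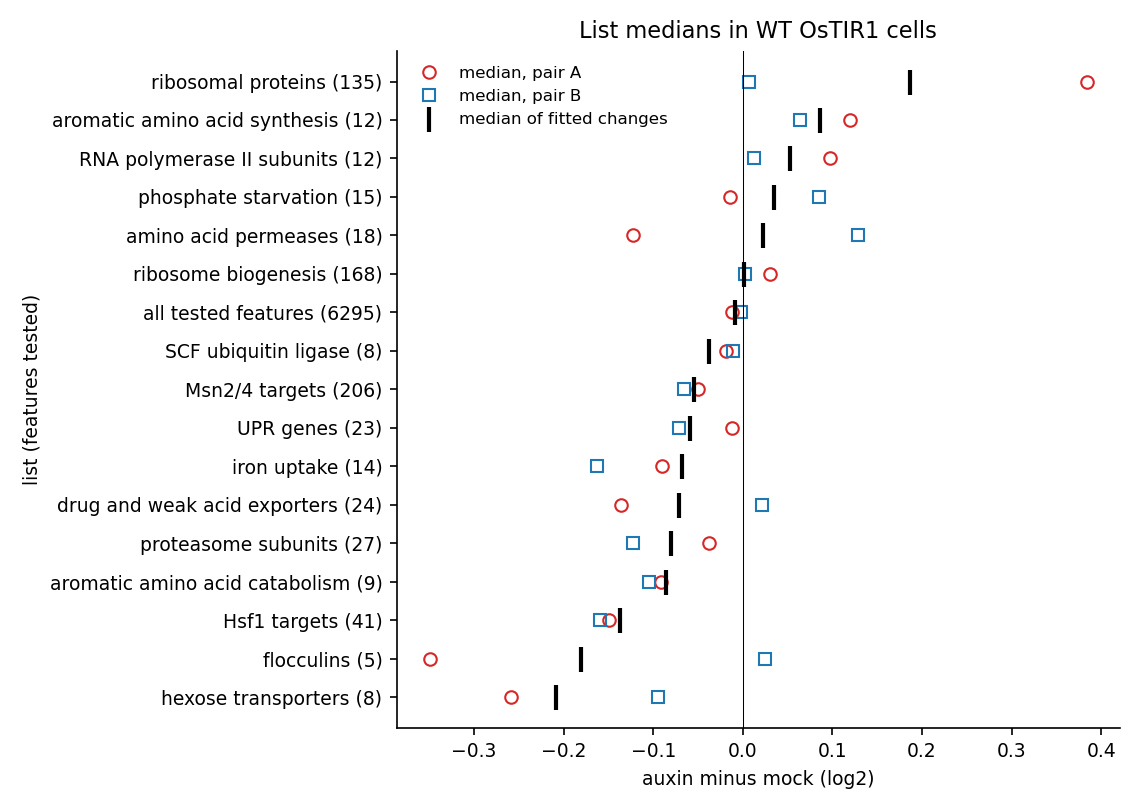
Median log2 change from mock to auxin over each gene list and over all features tested in WT OsTIR1 cells, in pair A (red circles), in pair B (blue squares) and of the fitted changes (black bars), with the number of features tested in brackets. Hsf1 targets lie at about -0.15 in both pairs, whereas ribosomal protein genes are at 0.38 in pair A and 0.01 in pair B.

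The spread between replicates set the limit of the control. The median absolute log2 ratio of replicate B to A was 0.12 in mock and 0.24 in auxin libraries over the 5587 features, and 1.09% and 2.70% of them differed 2-fold or more. Among the 13 groups of the series with 2 distinct libraries, WT mock ranked seventh from the narrowest and WT auxin twelfth, with only the 15 min DMSO libraries wider, at 0.31. The narrowest were RRP44-AID auxin (0.079) and LAS1-AID mock (0.082). The B minus A difference in mock and that in auxin had a Pearson correlation of 0.48 across features, which describes features of the same libraries and carries no test.

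Between the auxin libraries the median absolute log2 ratio was 1.45 over 11 tRNAs, 1.34 over 4 spliceosomal RNAs and 1.07 over 70 snoRNAs, against 0.24 over protein-coding features. Between the mock libraries it was widest for the 20 mitochondrial features, at 0.53, and for spliceosomal RNAs, at 0.096, it was below the 0.12 of protein-coding features. Of 70 snoRNAs, 49 were higher with auxin in pair A and 18 in pair B, with medians of 0.36 and -0.12, and in pair A 28 passed 1.5-fold higher and 10 lower, against 2 in either direction in pair B. The snoRNA snR42 had 22807 and 27609 in mock A and B, 93839 in auxin A and 26477 in auxin B. In the opposite direction, snR80 had 3544 and 5635 in mock A and B, only 154 in auxin A and 7362 in auxin B, the largest disagreement between the pairs. The mitochondrial intron reading frames BI4 and AI4, which encode proteins that act on introns of the COB and COX1 transcripts, were also low in auxin A alone: BI4 had 3490, 5170, 445 and 5395, and AI4 had 1114, 2783, 271 and 3443, in mock A, mock B, auxin A and auxin B. The rest of the 10 features with the largest disagreement were tP(UGG)Q, FRE7, tG(GCC)P1, YEL045C, MEO1, tK(CUU)E1 and YGL102C. FRE7, a metal reductase of the cell surface, was the only one of the 10 whose larger change was in pair B, with 382, 170, 307 and 869 in mock A, mock B, auxin A and auxin B. Counts of features annotated on the opposite strand of another gene also moved with auxin A, although the strand setting of the counting is not given, so that reads of the partners may not be fully separated. Over 64 pairs of overlapping features with a sense mean of at least 10000, the antisense sum was 0.383% of the sense sum in auxin A against 0.177 to 0.237% in the other 3 libraries. The part of strand setting, small RNAs and length in the differences of auxin A was not tested.

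Features that followed the replicate letter, in mock and auxin alike, were mostly small RNAs and unnamed reading frames. The spliceosomal RNA snR6 had 414 in mock A and 397 in auxin A but 91.7 in mock B and 75.6 in auxin B. The snoRNA snR9 had 25598 and 19193 in libraries A and 7856 and 7640 in libraries B, and snR10 and snR189 and the tRNAs tH(GUG)G2 and tG(GCC)F2 were likewise lower in B. YLR285C-A was higher in B, with 697 in mock A and 461 in auxin A against 2726 and 2722, as were YOR248W, YDR183C-A and YHL050C. All of these were chosen for the largest ratios of the same sign between replicates in mock and in auxin. That the letters lie apart, and mock and auxin do not, therefore says nothing further. Replicates were separate isolates and separate days at once, and these cannot be told apart.

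**Figure D5:**
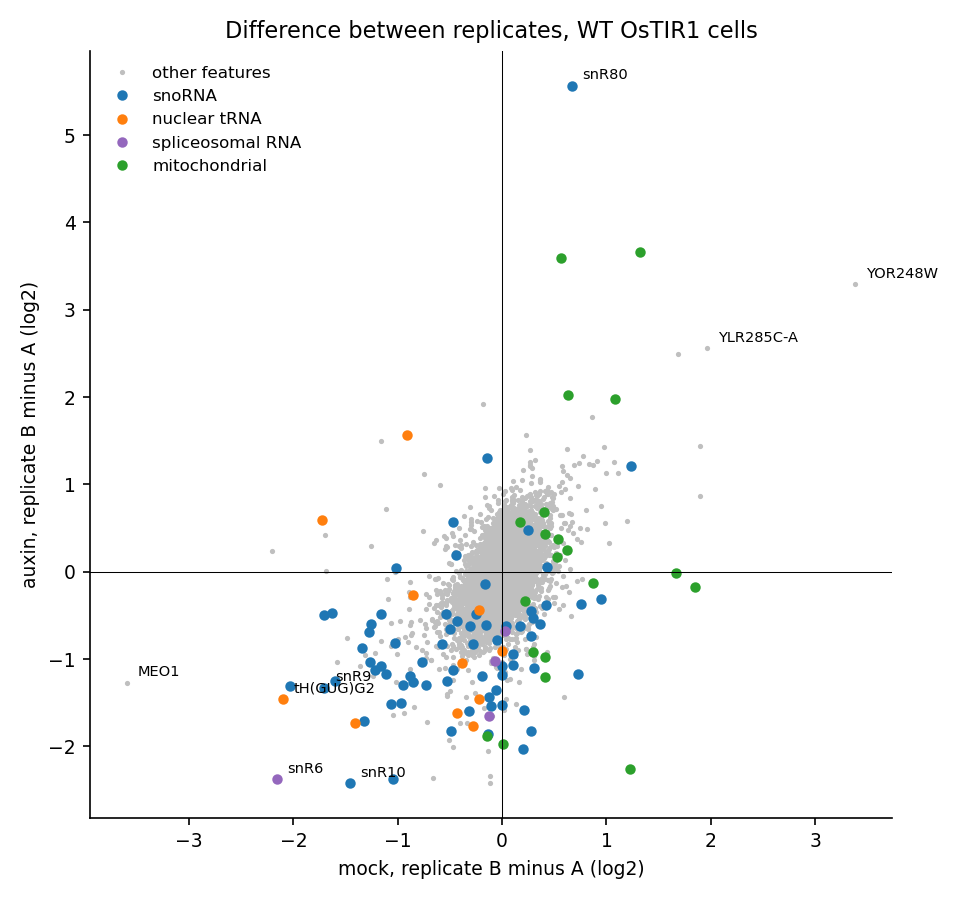
Log2 ratio of replicate B to A in mock (x axis) and auxin libraries (y axis) of WT OsTIR1 cells, for the same 5587 features, with noncoding and mitochondrial features in colour. Points along the diagonal, such as YOR248W (3.38 and 3.30) and snR6 (-2.16 and -2.38), follow the replicate letter, and 62 of the 70 snoRNAs lie below 0 on the auxin axis.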

How the data were processed

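Per the labels and the study's methods, RNA was extracted with hot acid phenol, depleted of rRNA and made into stranded libraries. Cutadapt and PRINSEQ served the authors for trimming and quality filters, TopHat 2.1.0 for alignment and HTSeq for counts per feature of Ensembl release 91 (strand setting not given in the sources used here). The deposited signal is that read count divided by DESeq2 size factors, separately for each table. Columns with the authors' own fold changes and p-values were not used. Normalized counts were whole multiples of 1 step for 100% of values (tolerance 0.02 reads), so reads were recovered, except for RRP44-AID. The RRP17-AID mock columns are identical over 7126 features and were counted as 1 library.

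Changes were fitted with limma 3.58.1 (R 4.3.3) on log2(normalized count + 1), which understates changes of low features, each table alone, and as interactions with edgeR 4.0.16 on recovered reads with TMM. DESeq2 1.42.0 and edgeR were alternatives. Scripts were tested on simulated data. Per the labels replicates were grown on separate days, and the methods add that they were separate isolates, so a replicate letter was taken to stand for isolate and day together. Deviations of same-lettered libraries from the group means correlated by 0.448 over 6295 features. Intervals of sequencing counts cover counting error only, and 2 libraries against 2 are too few for an exact permutation test to pass the threshold.

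Named were features called by limma, by limma with the block or by DESeq2, the 10 highest and 10 lowest alike in both pairs, the 15 highest per kb, the features with the widest replicate differences, the genes the study follows, and the ends of each list. The 6 lists of the study (41 Hsf1 targets in the copy used) and the others were described without a list test. Members and lists were chosen with earlier results of these data known. Lengths and promoters come from R64 (6079 of 7126 features matched), the build named in the submitters' processing notes. Python 3.11.15, numpy 2.4.6, pandas 2.3.3 and matplotlib 3.10.9 were used.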

Additional observations from a re-analysis of the deposited data

Results flagged for a closer look

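The interaction test, which compares the auxin effect in a tagged strain with that in WT, called 427 features for RAT1-AID and 454 for LAS1-AID cells (edgeR, adjusted p under 0.05). Among the named genes, those whose change in RAT1-AID cells differed from WT on the log2 scale were HSP82 by 2.62, YCR025C by 2.38, BTN2 by 3.95, HSP42 by 2.73, HSP104 by 1.77 and RPN4 by 1.75. For LAS1-AID cells the differences were 0.998 for ARO10, 1.10 for ARO9, 3.03 for HSP82, -1.90 for GLN1, -0.88 for GPP1, -1.69 for HIS4, 1.66 for IZH4, 2.33 for YCR025C, 1.50 for SSA1, 3.04 for SSA4, 2.88 for BTN2, 3.44 for HSP42, 2.72 for HSP104, 1.62 for RPN4 and 1.50 for UBI4. For ARO9, ARO10, GLN1, GPP1, HIS4, IZH4 and YCR025C, which were chosen by their change in WT, the difference contains that change. Their calls are therefore not independent of the choice. No explanation for these differences was tested.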

How the results depend on the processing

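The count of WT features called was 0, and became 8 with the replicate block in limma and 8 with it in edgeR, 2 with DESeq2, and 0 to 24 when 1 library was left out. It stayed at 0 with the other settings, including a test of protein-coding features only, which was chosen after seeing the data. Features alike in both pairs numbered 12, 50 with a mean of at least 10, and 0 at 2-fold among those with a mean of at least 100. The interaction count for RAT1-AID was 427, 641 with the replicate block, and 195 to 560 without 1 WT library, and that for LAS1-AID 454, 980 with the block, and 169 to 1427. Without division by length, 9 of the 15 highest features remained. Direction turned for TPS2 with TMM scaling (-0.0002) and, without 1 library, for YOR248W (-1.04 to 2.34), tG(GCC)F2 (-1.59 to 0.15), SSA1 (-0.189 to 0.0607), SSA4 (-0.124 to 0.0604), UBI4 (-0.688 to 0.0221), HSP12 (-0.473 to 0.105) and TPS2 (-0.0712 to 0.0797). List medians that turned without 1 library were those of Msn2/4 targets (-0.153 to 0.0368), unfolded protein response (-0.0823 to 0.0087), ribosome biogenesis (-0.0671 to 0.0824), ribosomal proteins (-0.0108 to 0.386), aromatic catabolism (-0.0827 to 0.0066), permeases (-0.138 to 0.187), exporters (-0.187 to 0.0445), flocculins (-0.426 to 0.0644), phosphate (-0.0934 to 0.130) and iron genes (-0.159 to 0.0344). The cause was not tested. A fit without 1 library assumes that the lone sample varies like the other group. With 2 libraries per group, small changes of rare transcripts are out of reach.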
